A study of Mus musculus with 16 samples.

Results

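Conventional dendritic cells of the mouse spleen were taken from a CITE-seq experiment, in which single cells are caught in droplets and both their messenger RNA and the barcoded antibodies bound to their surface are counted. The cells came from spleens of female BALB/cJ mice aged 9 months, with no treatment and no genetic change named in the labels. The labels list 16 samples in 4 groups of 4, which are the RNA and the antibody samples of 2 sources, Main1 and Main2. The spleens had been pushed through a strainer of 40 um mesh, followed by lysis of red cells (5 minutes) and antibody staining. The deposited tables hold 1 library per source, and the labels do not say whether the sources are different animals. The p-values here thus measure only the spread between these 2 libraries, which may be technical. This spread was mostly shared across genes and not each gene's own.

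Droplets of the dendritic cell gate were chosen by their raw antibody counts alone. A droplet needed at least 60 counts of CD11c and at least 500 of MHCII, with under 200 of B220, under 60 of CD106, under 40 of TCR and under 200 of Ly6G. The gate held 95 of 7097 droplets, or 1.34% (exact binomial 95% interval 1.08 to 1.63, which covers counting error only). In Main1 it held 38 of 3179 droplets, 1.20% (0.847 to 1.64), and in Main2 57 of 3918, 1.45% (1.10 to 1.88). The intervals of the libraries overlapped. At the limits of the gate, the 3 droplets just inside the CD11c limit had 64 to 73 counts and the 5 just outside it 46 to 55. The 5 droplets just inside the MHCII limit had 529 to 594 counts, and the 2 just outside it 407 and 418. Since CD11c and MHCII chose the droplets, their RNA (Itgax and the class II genes H2-Aa, H2-Ab1, H2-Eb1) is described below without support drawn from it, as is the RNA of the other gating antibodies.

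Within the gate, 13 droplets had 25 or more counts of the CD8a antibody (CD8a-high), 4 in Main1 and 9 in Main2, and 82 had fewer (CD8a-low), 34 in Main1 and 48 in Main2. CD8a-high droplets were thus 13.7% of the gate (7.49 to 22.3), 10.5% in Main1 and 15.8% in Main2. The lowest CD8a counts in the high class were 25 and 36, and the highest in the low class were 10 to 13, so few droplets lay near the limit. CD8a-high droplets were deeper. Their median was 6407 unique molecular identifiers (UMIs) per droplet, against 2645.5 in CD8a-low droplets and 1772 in all droplets outside the gate. In all, the CD8a-high droplets held 84276 UMIs and the CD8a-low droplets 223494. Levels below are UMIs of a gene per 1000000 UMIs of the named population (CPM), summed within each library. A sum over a population does not separate fewer droplets with a transcript from less of it in each.

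Conventional dendritic cells take up antigen in the tissue, cut it into peptides and show these on MHC molecules to T cells. They arise from bone marrow precursors that need the FLT3 receptor, and their core programme includes the transcription factors ZBTB46 and ID2. In the mouse spleen they fall into DC1, which carry CD8a, XCR1 and CLEC9A, depend on IRF8 and BATF3, and present antigen of dead cells to CD8 T cells, and DC2, which carry SIRPA and CD11b, often CD4, and mainly present to CD4 T cells. Both kinds can mature, raise CCR7 and Fascin and move to the T-cell zone.

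The antibody gate was first checked against the RNA of dendritic cell markers, which the gate did not read except for Itgax. The 4 markers not tied to the gate, Xcr1, Clec9a, Sirpa and Flt3, were higher in the gate than in all other droplets. Over the whole table, 1207 of 11383 genes tested passed an adjusted p of 0.05 (edgeR's quasi-likelihood test with the library as a block, Benjamini-Hochberg adjustment), which is 10.6%. Of these, 605 (5.31%) were higher in the gate and 602 (5.29%) higher outside it, a split that was 413 and 194 in DESeq2 and 206 and 424 when every droplet was thinned to 1000 UMIs. The median log2 fold change of all genes tested was -0.33. The marker genes of dendritic cells were thus high in the gate that bears their name.

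Flt3, the receptor that dendritic cell precursors need, stood at 94.0 CPM in Main1 and 83.9 in Main2 in the gate, against 4.71 and 5.21 in the other droplets. Both gate values lay far above both outside values (log2 fold change 4.08, SE 0.59, adjusted p = 3.1e-10). Xcr1, the receptor for the chemokine XCL1 (GRCm38 chromosome 9, 123852315 to 123862029, minus strand), stood at 51.3 and 214.9 CPM, against 1.53 and 2.60 outside (5.95, SE 0.59, adjusted p = 6.3e-22). Main2 lay above Main1 for Xcr1 in the gate, and both were above both outside values. Clec9a, which binds actin filaments of dead cells (chromosome 6, 129408862 to 129424763, plus strand), had 17.1 and 62.9 CPM against 2.42 and 1.20 (4.61, SE 0.97, adjusted p = 4.9e-05), and rested on 14 UMIs in 7 droplets.

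Sirpa, an inhibitory receptor for CD47 (chromosome 2, 129592835 to 129632228, plus strand), stood at 179.5 CPM in Main1 and 78.6 in Main2, against 13.5 and 13.2 outside. Its log2 fold change was 3.10 (SE 0.42, adjusted p = 8.5e-12). Cd209a, a lectin of the DC-SIGN family (chromosome 8, 3743397 to 3748984, minus strand), stood at 162.4 and 293.6 CPM against 11.7 and 12.2, with a log2 fold change of 4.23. Neither gene's gate and outside values overlapped. Itgax, which encodes the gating antigen CD11c, stood at 162.5 CPM in the gate and 4.15 outside.

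Of the 12 genes of the dendritic cell core list, 11 were higher in the gate, 10 of them not tied to the antibodies, with a list median of 2.70 on the log2 scale. Cst3, the protease inhibitor cystatin C, stood at 5196 CPM in Main1 and 8943 in Main2 against 699 and 772 outside (log2 fold change 3.16, SE 0.19, adjusted p = 6.3e-57). Zbtb46 had 34.2 and 20.97 CPM against 1.78 and 1.90 (3.76, adjusted p = 0.019), from 8 UMIs. Ckb (creatine kinase B), Id2, Dpp4 and the signalling adaptor Traf1 were also higher, with log2 fold changes of 4.90, 2.81, 2.59 and 2.53. Kmo did not pass (0.59, adjusted p = 0.59).

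Transcripts of both conventional subsets were in the gate. Of 24 DC1 list genes tested, 17 were higher and 1, Cd24a, was lower (-0.90, DESeq2 adjusted p = 0.14), with a list median of 2.89. Batf3 stood at 256.4 and 288.3 CPM against 6.12 and 7.01, a log2 fold change of 5.32. Snx22, Rab7b, Naaa (an acid amidase) and Ppt1 (a lysosomal thioesterase) were higher by 5.57, 5.15, 3.96 and 3.31. Irf8, which B cells also express, was higher by 0.84 (581 and 786 CPM against 385 and 360), but by -0.24 when every droplet was thinned to 1000 UMIs, so its direction turned with the depth given to each droplet. Of 25 DC2 list genes tested, 8 were higher and 3 lower, with a median of 0.59. The summed DC2 list was not higher in the gate, at 2856 CPM against 3343 in all other droplets. It stood at 7970 CPM in the macrophage gate and 36023 in the monocyte gate described below. S100a4 was higher by 2.14, Zeb2, a transcription factor, by 1.32, and the inhibitory receptor Cd300a by 3.33, while Ltb (-0.57), Ccr6 (-3.45) and Lyz2, the lysozyme of monocytes and macrophages (-2.50), were lower. DESeq2 called Lyz2 of these 3, with adjusted p values of 0.064 for Ltb and 0.28 for Ccr6.

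Among genes that present antigen, 8 of the 11 tested class II list genes whose own products the gate did not read were higher, and none was lower. The gate required MHCII on the surface, so higher RNA of these partner genes may follow from the selection and is described only. The peptide editor H2-DMb1 stood at 410 and 681 CPM against 114.7 and 113.6, a log2 fold change of 2.23. Cd74, the invariant chain, was higher by 1.15, and the class II transactivator Ciita by 1.14, though DESeq2 gave Ciita an adjusted p of 0.066. Of 19 class I presentation genes, 5 were higher, among them the immunoproteasome subunit Psmb9 by 1.07. Of 19 endolysosomal protease and inhibitor genes, 10 were higher and 2 lower, and the class II protease Ctss was higher by 0.76.

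Genes for sensing and for contact with T cells were looked at next. Of 13 costimulation genes 3 were higher, the ligand of CD28 Cd86 (1.599, DESeq2 adjusted p = 0.062), the integrin ligand Icam1 (1.82) and Slamf7 (1.83), and none was lower. Of 19 genes of Toll-like receptors and their adaptors 4 were higher and none lower, among them Tlr3 (3.76). Of 18 C-type lectin genes 6 were higher, Clec12a by 2.05 and Clec4a2 by 1.80 among them, and 1 was lower. The C-type lectin list summed to 842 CPM in the gate, against 2424 in the macrophage gate and 1614 in the monocyte gate described below. Against those gates, more C-type lectin and Toll-like genes were lower than higher. Of 20 interferon-stimulated genes 1 was higher and 1 lower, which is near the background of 10.6%, and of 21 actin and adhesion genes 8 were higher and 4 lower.

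Some growth factor receptor and transcription factor genes were also higher in the gate than in all other droplets. Of those 7002 other droplets, 5193 fell in the B-cell gate defined below. Counts for these lists against other phagocytes are also given below. Kit stood at 128.2 and 110.1 CPM against 2.42 and 3.10, a log2 fold change of 5.33. The GM-CSF receptor chains Csf2ra and Csf2rb were higher by 3.48 and 2.98, and in all 7 of 21 cytokine and growth factor receptor genes were higher and 1 lower. Of 30 transcription factor genes, 12 were higher and 1 lower, with Mycl at 4.49 and Spi1 (PU.1), a factor of the myeloid lineage, at 2.30. Spi1 was the steadiest of these between libraries, at 555.5 and 560.9 CPM in the gate against 111.8 and 107.3.

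Position and chemokine genes were split. Of 15 chemokine and position receptor genes, 2 were higher and 5 lower. S1pr1, a receptor for the egress signal sphingosine-1-phosphate, had 1 UMI in the gate (0 and 5.24 CPM) against 149.7 and 147.2 CPM outside, a log2 fold change of -5.55. Cxcr5, which draws B cells to follicles, and Cxcr4 were lower in edgeR (-2.32 and -2.03), with DESeq2 adjusted p values of 0.088 and 0.31. Of 8 chemokine ligand genes, 5 were higher, among them Cxcl9 (128.2 and 41.9 CPM against 0.765 and 0.501, log2 fold change 6.83) and Cxcl16, the ligand of CXCR6 (5.61). Ccl4 was also counted as higher by 1.31, but Main2 had 0 UMIs of it in the gate and 1 droplet of Main1 held 13 of its 25 UMIs. The cytokine Il1b stood at 162.4 and 351 CPM against 10.3 and 16.2, a log2 fold change of 4.23.

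Immediate early and heat shock genes were higher in 12 of 15 cases, with Fos at 2.57, Dusp1 at 2.81 and Hspa1a at 4.15. These genes respond to stimulation, that of tissue dissociation included, and their part in the other results was not tested. The 10 genes most raised in the gate under the fixed rule included Ppp1r14a, an inhibitor of myosin phosphatase (264.9 and 173.0 CPM against 0.127 and 0.601), and Mmp12, macrophage elastase (162.4 and 235.9 against 0.382 and 0.401). Adgrl3, an adhesion receptor, had 32 UMIs in the gate and 1 outside, a ratio of 1850 with a counting interval from 310 to 75490. The others were Adam23, the class I-like gene H2-M2, 9530059O14Rik, Ryr3, Bex6, Havcr2 and Fscn1.

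Transcripts of other cell types were lower in the gate. The gate left out droplets with high B220, TCR, Ly6G or CD106. Lower RNA of B cells, T cells, neutrophils and red pulp macrophages thus follows from the selection and is described only. All 16 B-cell list genes and 8 of 9 erythroid list genes were lower. So were 12 of 13 T-cell, 4 of 11 NK, 5 of 10 plasma cell and 8 of 12 neutrophil list genes, and no gene of these lists was higher. Leaving out genes tied to the gating antibodies, 9 of 10 T-cell and 7 of 11 neutrophil list genes were lower. Of 15 red pulp macrophage list genes 2 were higher and 7 lower, of 13 plasmacytoid dendritic cell list genes 1 was higher and 6 lower, of 14 monocyte list genes 2 were higher and 3 lower, and of 6 basophil list genes 1 was higher. DESeq2 called no basophil list gene. In the gate, 1 CD8a-high droplet of Main1 held 28 UMIs of the basophil list, and CD8a-low droplets held 1. The 10 genes most lowered under the rule all had 0 UMIs in the gate. Il7r, the interleukin 7 receptor of lymphocytes, was at 73.0 and 73.3 CPM outside, so at least 7.51-fold lower against a floor of 3 UMIs over the gate. The same bound was at least 8.01-fold for Car1 and 8.05-fold for the T-cell factor Lef1, which DESeq2 did not call. Lymphoid RNA was not absent. The B-cell list summed to 1376 CPM in CD8a-high and 2904 CPM in CD8a-low droplets against 37304 outside, the T-cell list to 47.5 and 112 against 1814, and 23 of the 95 droplets (3 CD8a-high, 20 CD8a-low) held UMIs of at least 2 of 12 lymphoid genes. Of 26 cell cycle genes, 8 were lower and 1 higher. Top2a had 1 UMI in the gate (log2 fold change -3.66, DESeq2 adjusted p = 0.19).

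**Figure D1:**
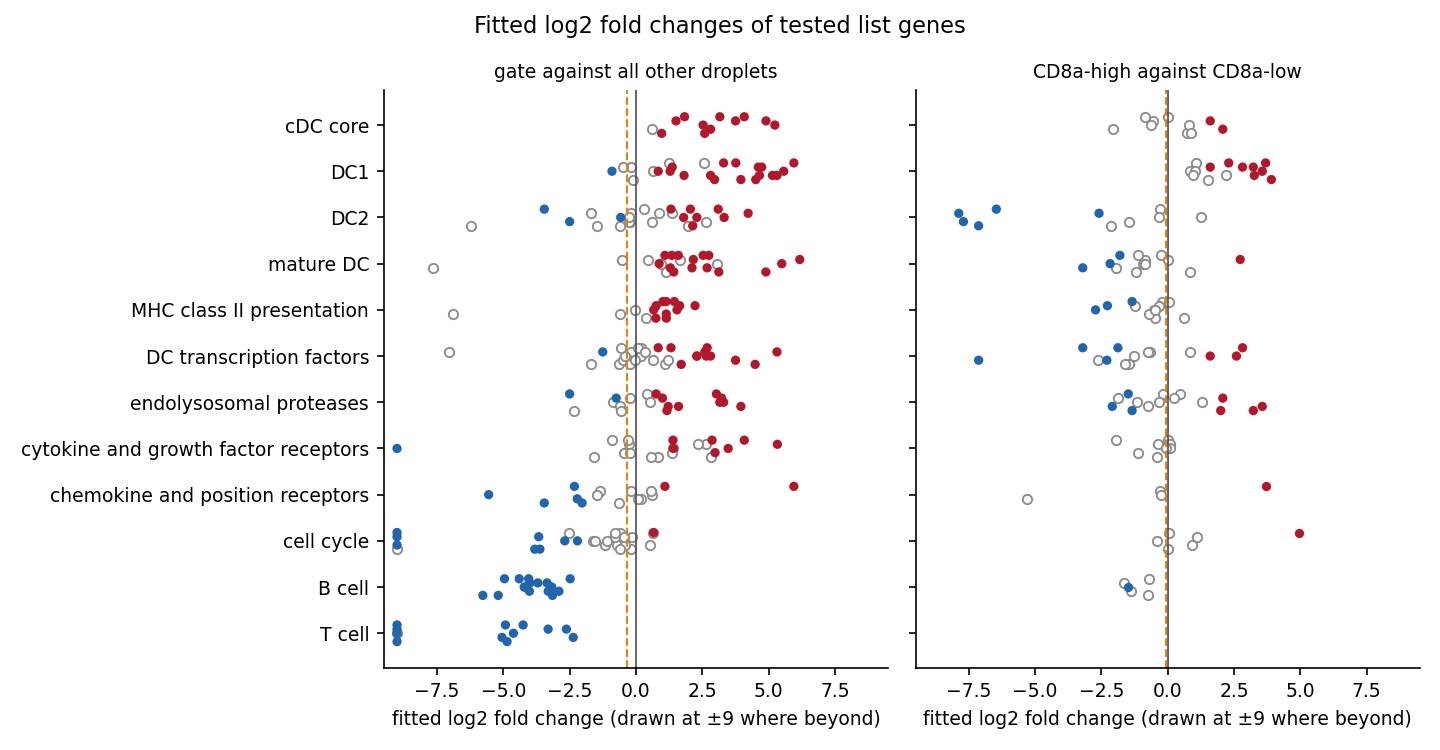
Fitted log2 fold changes of every tested gene of 12 lists, for the gate against all other droplets (left) and for CD8a-high against CD8a-low droplets (right). Filled points passed an adjusted p of 0.05 (red higher, blue lower), open points did not, and the dashed orange line is the median of all genes tested (-0.33 and -0.07). Red points fill the core and DC1 rows at left, and at right DC1 genes lie to the right of 0 and most DC2 genes to the left.

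The CD8a antibody was then used to ask whether it divides the gate into the DC1 and DC2 programmes. The CD8a-high droplets carried more RNA of DC1 genes (Xcr1, Irf8, Naaa, Ppt1, Cadm1), and the CD8a-low droplets carried the DC2 genes Cd209a, Sirpa, Zeb2 and S100a4, which had 0 UMIs in CD8a-high droplets. Of 1965 genes tested, 149 (7.58%) differed, with 41 (2.09%) higher in CD8a-high and 108 (5.5%) higher in CD8a-low droplets. Of 24 DC1 list genes in the table, 14 had the 20 UMIs a test needed, and 8 of these were higher in CD8a-high droplets and none lower, with a median log2 fold change of 2.25. Of 25 DC2 list genes, 10 were tested, and 5 were lower and none higher, with a median of -2.36, or -2.16 with the genes at 0 UMIs set to their floor. The median of all genes tested was -0.07. A gene present in 1 class only had to differ to pass the minimum, so these counts describe the genes with enough UMIs and not the whole lists.

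Xcr1 stood at 208.7 CPM in Main1 and 552.9 in Main2 in CD8a-high droplets, against 20.4 and 39.8 in CD8a-low droplets. Both high values exceeded both low values by over 5 times, with a log2 fold change of 3.69 (SE 0.65, adjusted p = 1.7e-06, DESeq2 adjusted p = 0.097). Xcr1 UMIs were found in 10 of 13 CD8a-high droplets and in 6 of 82 CD8a-low droplets. Clec9a had 12 UMIs in 5 CD8a-high droplets and 2 UMIs in 2 CD8a-low droplets (142.4 against 8.95 CPM), which is under the 20 UMIs needed, so it was not tested. Tlr3, the sensor of double-stranded RNA, was likewise too low, with 7 UMIs against 1.

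Irf8 was nearly equal in the 2 libraries, at 1826 and 1874 CPM in CD8a-high droplets against 337.3 and 222.8 in CD8a-low droplets. Every CD8a-high droplet held it, against 12 CD8a-low droplets (log2 fold change 2.82, SE 0.34, adjusted p = 2.8e-13). Ppt1 stood at 1617 and 2442 CPM against 184.0 and 175.1 (3.57, SE 0.36, adjusted p = 1.8e-19), and Naaa at 783 and 1014 CPM against 153.3 and 63.7 (3.23, SE 0.44, adjusted p = 1.9e-10). Irf8, Ppt1 and Naaa were the DC1 list genes that DESeq2 also called. Cadm1, an adhesion molecule, was higher by 3.27, and Gcsam and Id2 by 2.30 and 1.605. Rab7b, a small GTPase of late endosomes, had 18 UMIs against 3, a ratio of 15.9 with a counting interval from 4.65 to 84.3.

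Batf3, the partner of IRF8 in DC1, did not differ by the test, at 417 and 384 CPM in CD8a-high droplets against 224.9 and 238.7 in CD8a-low droplets (log2 fold change 0.83, SE 0.46, adjusted p = 0.33). Wdfy4, needed to present antigen of dead cells, had a log2 fold change of 1.06 (adjusted p = 0.35), Snx22 2.20 (0.073) and Cd24a 1.54 (0.087). Flt3 was at 104.3 and 76.8 CPM against 92.0 and 87.5, a log2 fold change of 0.01 (SE 0.83, adjusted p = 0.996), an error too wide to set the levels as equal.

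Cd209a had 0 UMIs in the CD8a-high droplets of both libraries, against 194 and 446 CPM in CD8a-low droplets, from 75 UMIs in 27 droplets. It was at least 9.43-fold lower in CD8a-high droplets against a floor of 3 UMIs over the class (adjusted p = 9.3e-07). Sirpa had 0 UMIs against 214.6 and 119.4 CPM, from 36 UMIs in 24 droplets, and was at least 4.53-fold lower (adjusted p = 0.0043). S100a4 (at least 10.2-fold) and Zeb2 (at least 6.16-fold, adjusted p = 2.7e-04) were also at 0 UMIs. DESeq2 gave no adjusted p for these 4 genes. Ltb, a lymphotoxin subunit, stood at 678 CPM in Main1 and 30.7 in Main2 in CD8a-high droplets against 1339 and 1297 in CD8a-low droplets (-2.59, SE 0.42, adjusted p = 8.9e-08). The Main1 level in CD8a-high droplets rested mostly on 1 droplet, which also held basophil list UMIs (described below).

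**Figure D2:**
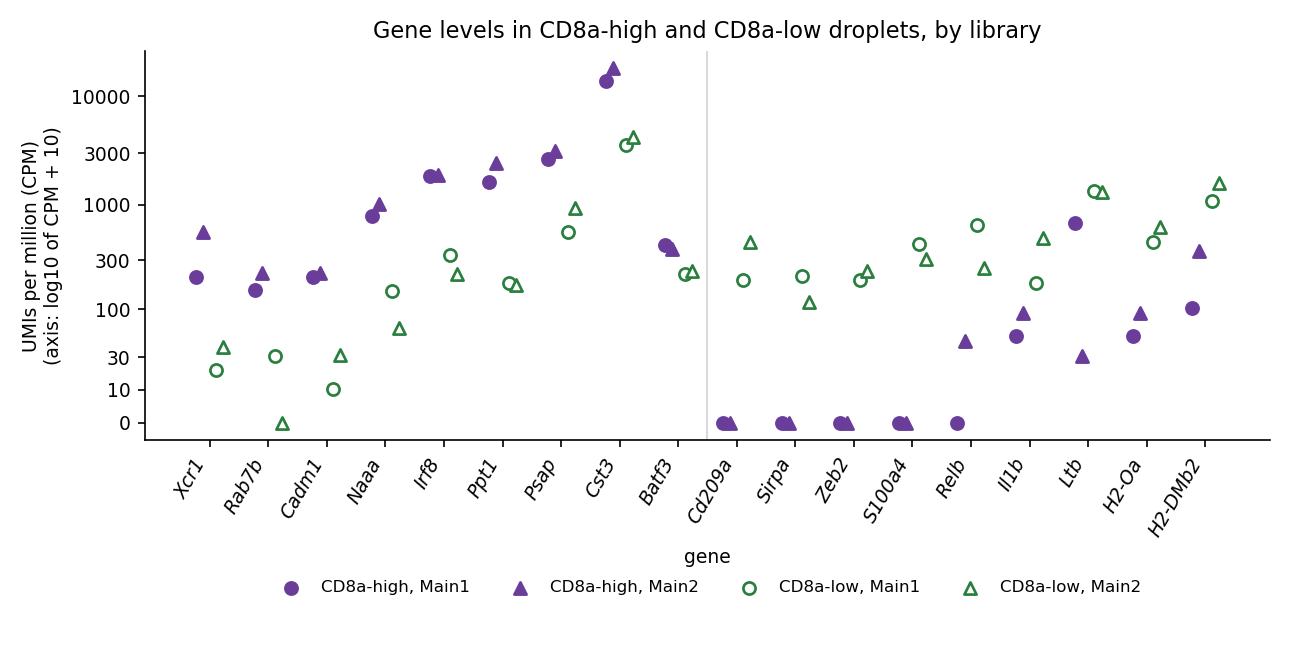
Levels in CPM (log axis with 10 added) of 18 genes in CD8a-high droplets (filled purple) and CD8a-low droplets (open green), with circles for Main1 and triangles for Main2. The genes left of the line are higher in CD8a-high droplets of both libraries, Batf3 among them by the least, and Cd209a, Sirpa, Zeb2 and S100a4 lie at 0 in CD8a-high droplets.

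Other genes of antigen handling differed between the classes. Cst3 was at 13721 and 18032 CPM in CD8a-high droplets against 3526 and 4234 in CD8a-low droplets (log2 fold change 2.08, SE 0.26, adjusted p = 7.3e-13), and Psap, the saposin precursor, was higher by 2.00. Of 15 protease genes tested, 4 were higher and 3, among them Ctss (-1.34) and Ctsh (-2.09), were lower. Of 13 class II genes tested, none was higher and 3 were lower: Ctss, H2-DMb2 and H2-Oa, the latter pair coding for partners of peptide loading. H2-DMb2 stood at 104.3 and 369 CPM against 1083 and 1576 (-2.27, SE 0.39, adjusted p = 8.7e-07), and H2-Oa at 52.2 and 92.2 CPM against 450 and 621 (-2.71). The class II chains themselves did not pass, with H2-Aa at -0.22, H2-Ab1 at -0.34, H2-Eb1 at -0.52 and Cd74 at -0.50. Of 15 class I genes, B2m (-1.05), H2-D1 (-0.95) and Cybb, a subunit of the phagocyte oxidase (-4.05), were lower and none was higher.

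Further genes were picked by the size of their difference or by the transcription factor list. Mpeg1 (perforin-2) was higher in CD8a-high droplets by 3.11, Mycl, a MYC relative, by 2.59, Rnf121 by 2.77 and Serpinb6b by 2.73, and P2ry14, a receptor for UDP-sugars, had 18 UMIs against 3. In CD8a-low droplets, Fcer1g, a signalling chain of Fc receptors, stood at 1165 and 1568 CPM against 208.7 and 122.9 (-3.19, SE 0.44, adjusted p = 2.2e-10). Tmem176a (-5.26), Tmem176b (-5.00) and S100a6 (-3.79) were lower in CD8a-high droplets with Fcer1g, and DESeq2 called all 4. Mmp12 was also lower (-4.39), and Ffar2, H2-M2, Pglyrp1, Ccnd2 and Adgrl3 had 0 UMIs in CD8a-high droplets and were at least 9.55-, 11.7-, 7.54-, 5.91- and 4.02-fold lower. Sirpb1c, Sirpb1b and Gm5150 were at least 11.4-, 8.67- and 7.04-fold lower, but these near-identical relatives of Sirpa can share reads and are uncertain. Immediate early genes were lower in 4 of 14 cases (Jun at -2.68, Ier2 at -2.33, Dusp1 at -1.64 and Nfkbia at -1.32) and higher in none, and 3 of 6 monocyte list genes were lower (Ms4a6c at -3.74, Ms4a4c at -3.52 and Plac8 at -1.25). Of 14 factors tested, 3 were higher (Irf8, Id2, Mycl) and 4 lower (Zeb2, Relb at -3.20, Etv3 at -2.29 and Bcl11a at -1.88).

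Calls were also compared without single droplets or groups of droplets. Ccl6 and Ccl9 were counted as higher in CD8a-high droplets (2.18 and 2.91), but 1 CD8a-high droplet of Main1 held 28 UMIs of 5 basophil list genes, 12 of them Mcpt8 and 11 Hdc, with 25 of the 27 Ccl6 UMIs and 16 of the 17 Ccl9 UMIs. Without it Ccl6 had a fitted log2 fold change of -1.83, and in Main2 alone its log2 ratio, with 10 CPM added to each level, was -1.58. The class without this droplet still gave 36 genes higher and 92 lower. Leaving out the 23 droplets with lymphoid RNA also left fewer droplets (10 CD8a-high and 62 CD8a-low) and 1369 genes to test, and 28 genes were called. These were 9 of the 41 and 19 of the 108, and of the 149 genes 129 could be tested there and none was called in the other direction. Xcr1, Irf8, Naaa, Ppt1, Cst3, Psap, Mpeg1, Cd209a, S100a4, H2-DMb2 and Relb were among those that kept their call, while 6 others lost it at fold changes close to those in all droplets, with Id2 at 1.65, Gcsam at 2.35, Ltb at -2.08, H2-Oa at -2.33 and Sirpa and Zeb2 still at 0 UMIs in CD8a-high droplets (adjusted p from 0.052 for Zeb2 to 0.31 for Gcsam). Whether lymphoid RNA or the smaller number of droplets moved these calls was not tested. DESeq2 called 15 genes in all (0.763%), 7 higher and 8 lower, and edgeR called each of them in the same direction. They were Irf8, Ppt1, Naaa, Cst3, Psap, Actg1 and Tmsb10 among the higher, and Ltb, H2-DMb2, Fcer1g, S100a6, Tmem176a, Tmem176b, Btg1 and Ptprc among the lower.

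Single droplets were compared on the summed UMIs of each list per 10000 UMIs. The DC1 list had a lowest, median and highest value of 16.9, 103 and 127 in the 13 CD8a-high droplets, against 0, 10.8 and 99.1 in the 82 CD8a-low droplets. The DC2 list had 0, 7.15 and 28.8 against 6.22, 35.6 and 118. The value of 28.8 came from the CD8a-high droplet of Main1 with basophil list UMIs, and the next highest in that class was 15.4. The ranges overlapped for both lists. The core list had a median of 200 in CD8a-high droplets and 43.6 in CD8a-low droplets. Cst3 alone made up most of the core list UMIs in both classes. Of 10 core list genes tested between the classes, 2 were higher in CD8a-high droplets and none lower. Their median log2 fold change was 0.37, and 2.09% of all genes tested were higher.

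A UMI of Xcr1 or Clec9a was found in 10 of 13 CD8a-high droplets (76.9%, 46.2 to 94.96) and in 7 of 82 CD8a-low droplets (8.54%, 3.50 to 16.8). A UMI of Sirpa or Cd209a was found in 0 of 13 (which allows up to 24.7%) and in 40 of 82 (48.8%). No droplet of the gate held both pairs. With each droplet thinned to 1000 UMIs, the first pair was in 46.2% and 2.44%, and the second in 0% and 30.5%. In the gate for B cells (B220 of at least 200, TCR under 40, CD11c under 60), which should lack both, the shares were 0.193% and 1.29% of 5193 droplets at a median of 1661 UMIs, or 0.154% and 0.616% when thinned. Each share above 0 in the dendritic cell gate lay above that in the B-cell gate. Other phagocytes carried the second pair as well, with Sirpa or Cd209a in 44.7% of macrophage gate and 52.3% of monocyte gate droplets (22.4% and 20.2% when thinned, at median depths of 1793.5 and 3130 UMIs). Xcr1 or Clec9a was in 3.95% of macrophage gate droplets (2.63% when thinned, near the 2.44% of CD8a-low droplets) and in 0.917% of monocyte gate droplets.

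A few droplets went against their class, and these were picked after their values were seen. In CD8a-low droplets, 4, with 2 in each library, had DC1 list sums of 86.7 to 99.1. They held 11 to 17 Irf8 UMIs each, 0 to 10 CD8a counts, 5 to 15 CD4 counts and 328 to 616 CD44 counts. In contrast, 1 CD8a-high droplet of Main2, with 196 CD8a counts, had a DC1 sum of 16.9. It held 21 UMIs of Fscn1, 19 of Ccr7 and 46 of Ccl5, no Xcr1, Clec9a, Naaa or Ppt1, and 6925 MHCII counts.

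**Figure D3:**
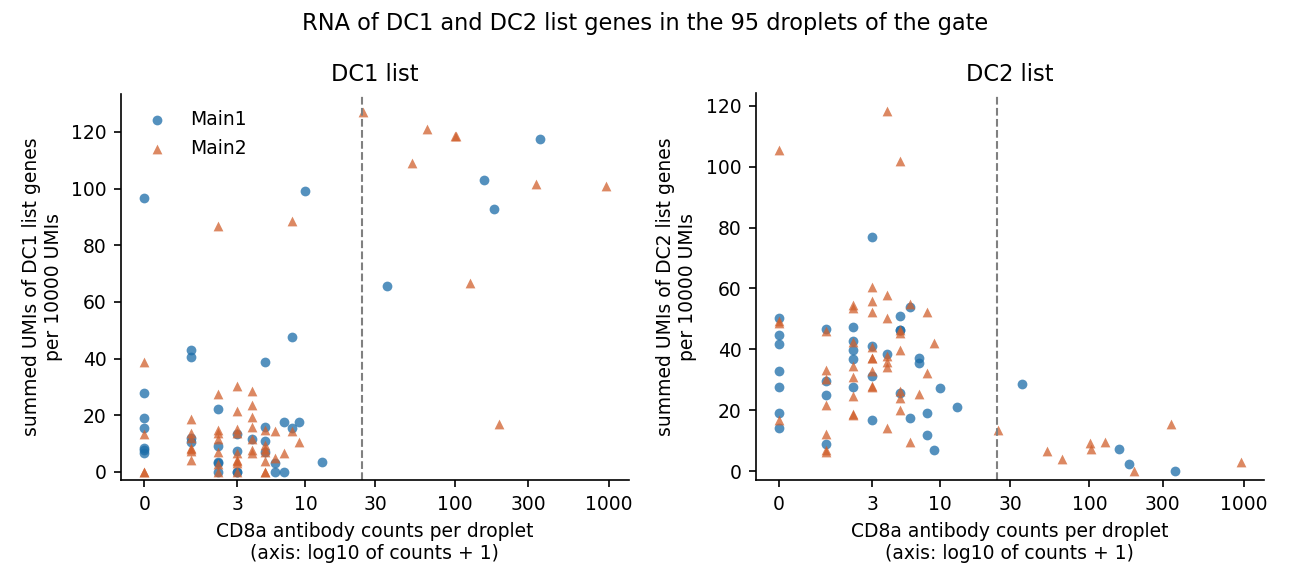
Summed UMIs of the DC1 list (left) and the DC2 list (right) per 10000 UMIs in each of the 95 droplets of the gate, against its CD8a antibody count (log axis of count plus 1). The dashed line marks the limit of 25 counts. Most CD8a-high droplets lie above 60 at left, with 4 CD8a-low droplets beside them and 1 CD8a-high droplet at 16.9. At right the CD8a-high droplets lie at 28.8 or lower, the highest being the Main1 droplet with basophil list UMIs.

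The antibodies that the gate did not use gave the same 2 classes a surface profile, described without a test since they come from the same panel. CD11b had a median of 31 counts in Main1 and 27 in Main2 in CD8a-high droplets, against 232 and 165 in CD8a-low droplets. CD44, a receptor for hyaluronan, was at 299.5 and 496 counts against 61.5 and 54.5. F4/80 was at 17 and 26 against 81 and 80, CD4 at 7.5 and 7 against 82.5 and 111.5, and the Fc receptors CD16/32 at 68.5 and 85 against 39.5 and 43.5. CD11b, F4/80 and CD4 were thus low and CD44 and CD16/32 high in CD8a-high droplets in both libraries. MHCII, which the gate did use, was at 1366 and 1115 counts in CD8a-high droplets and 2344 and 1989.5 in CD8a-low droplets.

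The CD8a-low droplets were further split at 25 CD4 counts into 65 CD4-high droplets (26 in Main1, 39 in Main2) and 17 CD4-low droplets (8 and 9). CD4-low droplets had a median of 178 CD44 counts against 53 in CD4-high droplets, 32 against 84 F4/80 counts and 1068 against 2408 MHCII counts. These medians include the CD8a-low droplets with DC1 list sums of 86.7 to 99.1, all of them CD4-low. Those droplets had 328 to 616 CD44, 7 to 32 F4/80 and 543 to 1068 MHCII counts. The medians thus do not describe CD4-low droplets at large. CD11b was close in both, at 185 and 183. Of the 7 CD8a-low droplets with Xcr1 or Clec9a, 5 were CD4-low and 2 CD4-high. Sirpa or Cd209a UMIs were in 7 of 17 CD4-low and 33 of 65 CD4-high droplets.

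**Figure D4:**
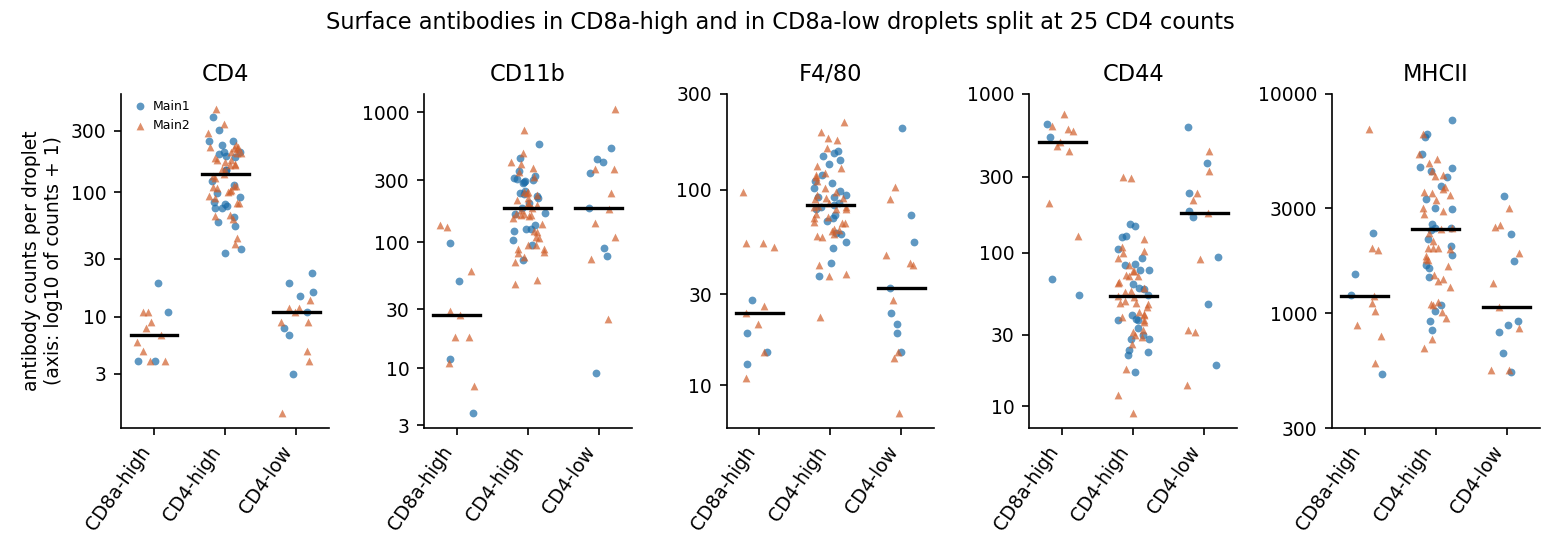
Antibody counts per droplet (log axis of count plus 1) of CD4, CD11b, F4/80, CD44 and MHCII in CD8a-high droplets and in CD8a-low droplets split at 25 CD4 counts. Bars are medians, circles are Main1 and triangles Main2. CD11b and F4/80 lie lower and CD44 higher in CD8a-high droplets. The CD44 median of CD4-low droplets lies between those of the other classes, with the CD4-low droplets of high DC1 list sums included.

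The test for RNA between CD4-high and CD4-low droplets called 1 gene of 1480 (0.0676%), while 115 had an unadjusted p under 0.05 and DESeq2 called 7 (0.473%). Crip1, a LIM-domain protein, stood at 284.5 and 280.4 CPM in CD4-high droplets and at 4577 and 4838 in CD4-low droplets (log2 fold change -4.02, SE 0.19, adjusted p = 0.041). Crip1 lost its call, and no gene was called, without the droplets that held Xcr1 or Clec9a or without those with lymphoid RNA, and up to 61 genes were called under other settings. Irf8 (42.0 against 949 CPM), Cst3 (2539 against 7982) and Ccr2 (6.002 against 422) did not pass edgeR, with adjusted p values of 0.12, 0.10 and 0.25, and DESeq2 called all 3. Only 5 CD4-low droplets held Irf8, with 54 UMIs. The CD8a-low droplets with DC1 list sums of 86.7 to 99.1 were all CD4-low and held 12, 17, 13 and 11 of these UMIs. Their core list sums were 183 to 223, against a CD8a-low median of 43.6, so these values do not describe CD4-low droplets at large. Apoe (834 against 70.3 CPM) passed neither test. Cd209a (312 against 404) and S100a4 (378 against 317) had log2 fold changes of -0.34 and 0.31.

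Of 22 mature dendritic cell list genes tested, 15 were higher in the gate than outside and none lower, with a median of 1.63. Fscn1, the actin bundler Fascin, stood at 564.1 CPM in Main1 and 162.5 in Main2 in the gate against 4.72 and 3.71 outside (log2 fold change 6.18, SE 0.37, adjusted p = 1.9e-60). Relb, an NF-kB subunit, stood at 538 and 183.5 CPM against 49.95 and 47.4 (2.68). Cacnb3, Socs2, Cd86, Cd83 and Ccr7, the receptor for the T-zone chemokines, were higher by 5.50, 3.13, 1.599, 1.35 and 1.09.

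Droplets with at least 2 Fscn1 UMIs numbered 9, 6 of 38 in Main1 and 3 of 57 in Main2, and 8 of them were CD8a-low. They held 7.72% of the UMIs of the gate but 62 of its 76 Ccr7 UMIs (81.6%), 27 of 30 Socs2 UMIs (90%), 584 of 728 Ccl5 UMIs (80.2%) and 50 of 93 H2-M2 UMIs (53.8%). Other genes of the list were spread wider, with 39 of 98 Relb UMIs (39.8%), 5 of 18 Cd40 UMIs (27.8%), 6 of 32 Serpinb6b UMIs (18.8%) and 1 of 25 Cd86 UMIs (4%) in these droplets. These shares follow from a split by a gene of the same list and describe the droplets only. Without the Fscn1 droplets, the gate's Ccr7, Ccl5 and Socs2 had log2 fold changes of -1.28, -1.45 and -0.11 against outside. These values also follow from that choice of droplets and are described only. In the CD8a split, Relb, Cd83 and Ccl5 were lower in CD8a-high droplets (-3.20, -1.80 and -2.17), and Serpinb6b was the 1 mature list gene that was higher. Ccl5 stood at 104.3 and 783 CPM in CD8a-high against 4630 and 1767 in CD8a-low droplets, and its DESeq2 adjusted p was 0.65.

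To show where the gate differs from other phagocytes, it was compared with a macrophage gate (CD106 of at least 60, F4/80 of at least 100, 76 droplets) and a monocyte gate (Ly6C of at least 500, 109 droplets). These comparisons share the dendritic cell droplets. Against the macrophage gate, 347 of 2945 genes (11.8%) differed, with 136 (4.62%) higher and 211 (7.16%) lower in dendritic cells. The macrophage gate held erythroid RNA, at 66988 CPM of that list against 227 in the dendritic cell gate, and all 5 erythroid list genes tested were lower in dendritic cells. The part of this RNA in the other differences was not tested. All 15 red pulp macrophage list genes were lower, 13 of them not tied to the gates. Hmox1, the haem oxygenase, had 0 UMIs in the dendritic cell gate and stood at 2516 and 2769 CPM in macrophages, so at least 273-fold lower. C1qa, a complement subunit, had 1 UMI against 486 (log2 fold change -9.47). C1qb and Fcna, a ficolin, were at 0 UMIs and at least 249- and 140-fold lower. DESeq2 called 87 genes (2.95%), C1qa among them and Hmox1 not (adjusted p = 0.085).

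Class II genes were mostly higher in dendritic cells than in macrophages, while class I and costimulation genes mostly did not pass. Of 11 class II list genes whose own products the gates did not read, 7 were higher and 1 lower, with H2-DMb2 at 923 and 1164 CPM against 82.5 and 208.8 (2.74, SE 0.30, adjusted p = 6.8e-04). Only the dendritic cell gate required MHCII, so this may follow from the selection. Of 17 class I presentation genes 1 was higher and none lower, and of 6 costimulation genes none passed. Of 16 mature list genes, 7 were higher (2 of them also in DESeq2), with Relb at 4.06, and of 19 protease genes 2 were higher and 11 lower, with Ctsb at -3.90. Lyz2 was lower (-4.44). Flt3 had 0 UMIs in macrophages and was at least 4.79-fold higher, and H2-M2 at least 16.5-fold. Ramp1, Hmgn3, Btla and Cd72 were also at 0 UMIs there, with bounds of at least 8.87-, 7.27-, 6.92- and 6.92-fold. Cst3 (0.21), Id2 (-0.14), Batf3 (1.34), Cd209a (1.08) and Sirpa (-1.40) did not pass. Of 10 core list genes 4 were higher and none lower, and of 14 DC1 list genes 2 were higher and 1 lower. DESeq2 called none of these. Of 14 DC2 list genes 2 were higher and 5 lower. Of 13 cytokine and growth factor receptor genes 3 were higher and 1 lower. Among 17 transcription factor genes 4 were higher and none lower. None of 11 C-type lectin genes was higher and 5 were lower. None of 8 Toll-like receptor and adaptor genes was higher and 2 were lower. In the macrophage gate 1 droplet held 87.5% of the 8 Xcr1 UMIs, and single droplets held 51.9% of the Naaa and 47.2% of the Ppt1 UMIs.

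Against the monocyte gate, 785 of 3946 genes (19.9%) differed, with 372 (9.43%) higher and 413 (10.5%) lower in dendritic cells. Of 11 core list genes, 9 were higher and none lower. Of 15 DC1 list genes 11 were higher, and of 17 DC2 list genes 2 were higher and 11 lower. Of 16 cytokine and growth factor receptor genes 3 were higher and 5 lower. Among 19 transcription factor genes 7 were higher and 3 lower. Among 9 C-type lectin genes 1 was higher and 4 lower. None of 10 Toll-like receptor and adaptor genes was higher and 2 were lower. Flt3 (log2 fold change 1.81), Batf3 (1.54), Id2 (2.34), Relb (3.13) and Cd209a (2.03) were higher. Ciita had 50 UMIs against 1 (5.68), but the dendritic cell gate required MHCII and the monocyte gate had at most 408 MHCII counts. Lyz2 (-7.06) and Ccr2, the receptor that brings monocytes out of the marrow (-3.49), were lower, and Sirpa (-0.54, adjusted p = 0.27) and Irf8 (0.30, adjusted p = 0.31) did not pass. DESeq2 called 118 genes (2.99%), among them Id2, Relb, Ciita, Lyz2 and Ccr2 but not Flt3, Batf3 or Cd209a.

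Genes at 0 UMIs in 1 of these gates gave bounds. Tbc1d4, Fscn1, Cd83, H2-M2 and Ffar2 were at least 59.2-, 40.4-, 40.0-, 38.7- and 31.7-fold higher in dendritic cells than in monocytes. Mgst1, Fn1 (fibronectin), F13a1, Hopx and Gda were at least 62.1-, 38.7-, 32.3-, 20.5- and 16.8-fold lower. The monocyte gate also held B and plasma cell RNA, at 45241 and 29740 CPM of those lists. Its part in these differences was not tested.

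**Figure D5:**
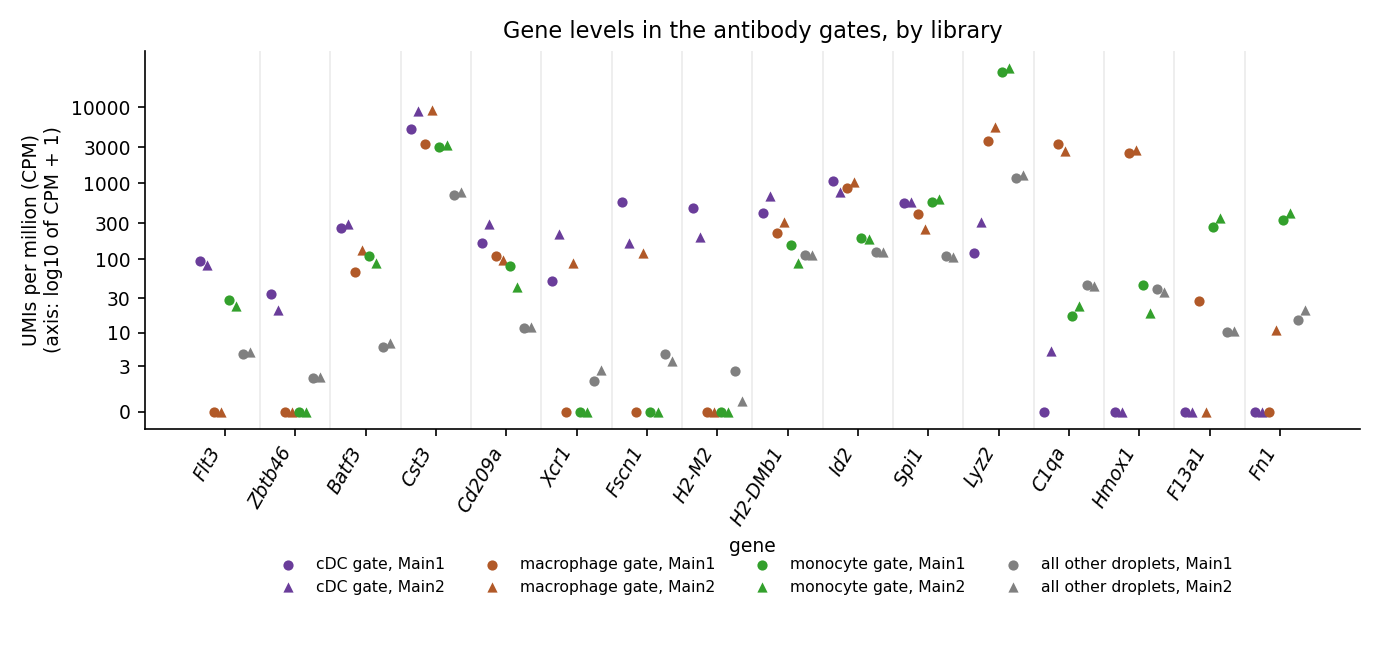
Levels in CPM (log axis with 1 added) of 16 genes in the dendritic cell, macrophage and monocyte gates and in all other droplets, with circles for Main1 and triangles for Main2. Flt3 and Zbtb46 are highest in the dendritic cell gate in both libraries, Cst3 and Id2 are similar in dendritic cells and macrophages, and Hmox1, F13a1 and Fn1 lie at 0 in dendritic cells.

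Dendritic cell transcripts were also found outside the gate. At least 2 UMIs of Xcr1 and Clec9a together were found in 17 droplets, 10 of them in the gate and 7 outside it, 4 of these with 25 or more CD8a counts. At least 2 UMIs of Cd209a were found in 51 droplets, 15 in the gate and 36 outside. Of the 36, 28 missed the MHCII limit, 23 the CD11c limit and 20 the B220 limit, with some missing several. The gate thus held 10 of the 17 droplets with at least 2 UMIs of Xcr1 and Clec9a, and 15 of the 51 with at least 2 of Cd209a.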

How the data were processed

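The deposited tables gave 1 raw count per gene and droplet and 1 raw count per antibody and droplet, which the authors did not normalize, for 11713 genes, 30 antibodies and 7097 droplets. Per the submitters' processing notes, bcl2fastq and Cell Ranger 3.0.2 were used with mm10. How antibody tags were counted was not given in the sources used here. Main1 held 7964712 UMIs and Main2 10174799 (medians 1789 and 1778 per droplet), with 14 barcodes in both. No mitochondrial gene was listed and no gene was found in fewer than 15 droplets, so the table had been filtered. No droplet filter or doublet caller was applied here. Symbols and coordinates came from GENCODE vM21 (GRCm38), where 11682 identifiers matched and 31 did not. The titles hold date-like codes that the tables do not separate.

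UMIs were summed per library and population, and genes with 20 or more UMIs over the 4 sums were tested with edgeR 4.0.16 (TMM, glmQLFTest, library as a block, since both populations of a library share its droplets' source), in R 4.3.3 with limma 3.58.1. With 4 sums the fit had 1 residual degree of freedom. The prior degrees of freedom were infinite except against macrophages (7.48) and in the CD4 split (3.03). Where they were infinite, a gene's own spread between libraries had no weight, and edgeR used a spread shared across genes. DESeq2 1.42.0, other limits, other scalings, thinned droplets and left-out droplets were alternatives. The tests were tried on simulated counts first. A fold against 0 UMIs is a bound against 3 UMIs over the population. The members and gene lists were chosen with earlier results of these data known. Named genes were the listed genes described, plus the 10 (5 for phagocytes) with the largest fold in each direction among called genes with the same direction in both libraries, UMIs in at least 5 droplets, under 30% from 1 droplet and no tie to the gate. One gene that this rule names is not reported here.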

Additional observations from a re-analysis of the deposited data

How the results depend on the processing

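The counts of genes called moved with the processing. Against all other droplets, 1207 became 607 with DESeq2 (413 higher, 194 lower in the gate) and 630 when thinned (206 higher, 424 lower). For the CD8a split, 149 became 15 with DESeq2, 58 with no minimum count, 39 when thinned and 28 without droplets with lymphoid RNA. Against macrophages, 347 became 546 with CD11c at 100, 87 with DESeq2, 535 with DESeq2's size factors in edgeR, 561 with no minimum and 230 when thinned. Against monocytes, 785 became 118 with DESeq2 and 276 when thinned. For the CD4 split, 1 became 28 with CD11c at 100, 34 with CD4 at 50, 7 with DESeq2, 52 with DESeq2's size factors, 23 with library totals, 2 with a minimum of 50, 61 with no minimum, 14 without the replicate block, 14 when thinned, 49 without Fscn1 droplets, and 0 without Xcr1 and Clec9a droplets or without lymphoid droplets. With no replicate block, in which the libraries are not paired, the other counts were 1194, 188, 396 and 660. The gate held 1.10% of droplets with MHCII at 1000. With 1 library left out, the gate's share ranged from 1.20% to 1.45% and the CD8a-high share from 10.5% to 15.8%.

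Of the 605 and 602 genes called higher and lower in the gate, DESeq2 kept 408 and 190. Of the 41 and 108 called in the CD8a split, 26 and 69 were kept with CD8a at 50, and 5 and 27 when thinned, where 80 of the 149 had enough UMIs to be tested.

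Directions that reversed were as follows. Values without Main1 or Main2 are log2 ratios in the library left, with 10 CPM added to each level, and the others are fitted. Against all other droplets, Ccl4 went to -1.01 with DESeq2, -0.42 when thinned and -1.94 without Main1 (2.29 without Main2). Irf8 went to -0.24 when thinned. Ccr7, Socs2 and Ccl5 went to -1.28, -0.11 and -1.45 without Fscn1 droplets. In the CD8a split, Ccl6 went to -2.28 with CD8a at 50, -1.70 with droplets of 10 to 49 CD8a counts left out, -1.83 without the basophil droplet, -1.81 without it and the Fscn1 droplets, and -1.58 without Main1 (4.69 without Main2). Ccl9 went to -2.09 with CD8a at 50 and -0.97 without Main1 (4.79 without Main2). The CD4 split and the alternatives without basophil, Fscn1, or Xcr1 and Clec9a droplets were chosen after seeing the data. The cause was not tested.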
